A study of Mus musculus with 12 samples.

Results

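The 10 genes described here belong to the Ly6 and Ms4a families of cell surface proteins: Ly6a, Ly6e, Ly6c1, Ly6c2, Ly6i, Ms4a4c, Ms4a6b, Ms4a6c, Ms4a6d and Ms4a7. They were taken by gene name from the count tables of unstimulated and LPS-stimulated macrophages, and were picked because Ly6a, Ly6e and Ms4a6c are lower in ACAT1 KO cells. Of the 10, 7 were listed, among 16699 genes present in both tables, and Ly6c1, Ly6c2 and Ly6i were in neither. Each table lists a gene only where 5 or more of its 6 libraries held 4 or more counts, and the level of a gene that is not listed is not known. The cells were J774A.1, a mouse macrophage line, in 4 groups of 3 libraries each: WT or ACAT1 KO, without treatment or after 2 h with lipopolysaccharide (LPS, 100 ng/ml), a bacterial ligand of TLR4. ACAT1 KO cells had received a Cas9 vector with a guide RNA to the Acat1 gene and WT cells the same vector without a guide, and the paper counts 3 lines per genotype, all derived from a single parental line. The genes were chosen on the genotype difference. Their values in that comparison and in the interaction of genotype with LPS are therefore a description, given without p-values. Calls by genotype are counted only beside the share of all genes, and they do not test the difference that chose the genes. The responses to LPS within each genotype were tested.

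Ly6 proteins are small proteins held at the cell surface by a glycolipid anchor, with a compact disulfide-bonded fold. Ly6a is Sca-1, a marker of blood stem cells that interferon induces, Ly6e is an interferon-induced protein that alters the entry of several viruses, and the Ly6c proteins mark inflammatory monocytes. Ms4a proteins cross the membrane 4 times, as does the B cell antigen CD20 (Ms4a1), and the Ms4a6 and Ms4a7 genes are used in macrophages. Both families sit in clusters of related genes, Ly6 on chromosome 15 and Ms4a on chromosome 19.

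The sequences before the start sites of Ms4a6b, Ms4a6c and Ms4a4c are shown because the first pair shared the longest run of bases among the promoters at hand and Ms4a4c had the largest response to LPS. RefSeq promoters were found for 6 of the 10 genes, Ms4a4c, Ms4a6b, Ms4a6c, Ms4a7, Ly6c1 and Ly6c2. The 250 bases before the start are given 5′ to 3′ on build GRCm38.p6, all on the plus strand, at chr19:11518309-11518558 for Ms4a6b, chr19:11469118-11469367 for Ms4a6c and chr19:11407411-11407660 for Ms4a4c. Capitals mark GAAA and GAA separated by 2 bases, a short form of the interferon-stimulated response element that was added after the sequences were seen.
Ms4a6b: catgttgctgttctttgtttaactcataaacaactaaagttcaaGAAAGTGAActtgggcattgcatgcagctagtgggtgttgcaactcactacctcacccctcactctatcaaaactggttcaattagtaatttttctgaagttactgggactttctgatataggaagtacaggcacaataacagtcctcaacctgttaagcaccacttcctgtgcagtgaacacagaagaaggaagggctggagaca
Ms4a6c: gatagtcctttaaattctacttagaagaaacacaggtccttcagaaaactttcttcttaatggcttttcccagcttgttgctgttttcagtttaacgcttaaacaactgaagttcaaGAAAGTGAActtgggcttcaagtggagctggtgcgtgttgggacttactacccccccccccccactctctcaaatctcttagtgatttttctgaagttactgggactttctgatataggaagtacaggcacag
Ms4a4c: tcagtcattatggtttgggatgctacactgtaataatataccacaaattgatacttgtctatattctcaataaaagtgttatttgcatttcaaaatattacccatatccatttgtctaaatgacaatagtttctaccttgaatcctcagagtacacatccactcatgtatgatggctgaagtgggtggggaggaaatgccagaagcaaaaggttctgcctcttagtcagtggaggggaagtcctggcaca
The same 9 bases matched in Ms4a6b, from 206 to 198 bases before the start, and in Ms4a6c, from 133 to 125 bases before it. On either strand this form was held by 7.16% of 27025 promoters, 1 per gene. Both Ms4a7 promoters also held it, and the Ms4a4c promoter shown did not. The Ms4a4c and Ms4a6b promoters shown lie inside the spans of these genes in the GENCODE annotation of GRCm38, which begin at 11404770 and 11516512. The bases before those positions were not searched. The longer core, GAAA and GAAA separated by 2 bases (3.04% of promoters), and the gamma-activated sequence, TTC and GAA separated by 3 bases (7.18%), were in none of the 6 genes. The PU.1 core GAGGAAGT (2.44%) was found in Ly6c1 and Ly6c2 alone, and it overlaps none of the others. Ms4a6b and Ms4a6c also shared an unbroken run of 48 bases, beginning 118 bases before the start of Ms4a6b and 49 bases before that of Ms4a6c.
Shared run: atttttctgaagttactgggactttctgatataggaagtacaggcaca
These matches are of letters only, and binding was not measured.

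Copies can split reads, so the share of each gene's transcript windows that recur exactly in the transcripts of another gene was counted in the GENCODE annotation of GRCm38. At 50 bases, 19% of the windows of Ly6a recurred elsewhere, and 15% of all its windows were found in Ly6c1. At 100 bases the share in Ly6a was 1.45%, whereas none of the windows of Ly6e, Ms4a6b, Ms4a6d or Ms4a7 recurred. Ms4a4c shared 7.73% of its 50-base windows with Ms4a4b, and Ms4a6c shared 5.85% with Ms4a6b. Ly6c1 and Ly6c2 were the closest pair, with 21.5% and 13.9% of their windows in common, respectively. Ms4a6c, Ms4a6b and Ms4a4c also overlap exons of genes on the other strand, BE692007, Gm19261 and Gm5692.

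Libraries held 56948593 to 127263834 counts in unstimulated cells and 96704955 to 167280149 after LPS. All 10 macrophage markers were listed. In CPM (counts scaled to library size by edgeR's TMM method) they summed to 8891 to 9893 in WT and to 10130 to 11482 in ACAT1 KO cells without stimulation, so that every ACAT1 KO library was higher, and to 8229 to 8585 and 8394 to 9815 after LPS, where the genotypes overlapped. Of the marker lists for other cells, 1 of 6 neutrophil, 1 of 5 B cell, 1 of 5 T cell and 1 of 5 fibroblast markers was listed, and no epithelial marker of 4. The 4 monocyte markers summed to 49.9 to 80.0 CPM in WT and to 100.4 to 138.8 CPM in ACAT1 KO cells without stimulation. After LPS they summed to 22.6 to 35.8 and 38.3 to 56.3 CPM. This sum was higher in every ACAT1 KO library of both states. Single genes weigh heavily in both sums: over the 12 libraries Lyz2 held 5020 to 7413 CPM and Cx3cr1 8.49 to 109.2 CPM. The sums therefore do not give the direction of each marker. Where the genotypes were apart, the sums differed in the opposite direction to most genes described here, and their part in those differences was not tested. Acat1, the targeted gene, was 98.8 ± 15.6 CPM (SD, n = 3) in unstimulated WT and 26.8 ± 1.82 CPM in unstimulated ACAT1 KO cells, and 81.9 ± 15.5 and 19.1 ± 0.732 CPM after LPS. Among unstimulated libraries, WT1, WT2 and KO2 stood apart in their antisense counts. They placed 0.0136%, 0.0180% and 0.0209% of all counts on noncoding genes that sit wholly inside exons transcribed the opposite way, and no other library exceeded 0.00334%. Without these 3 antisense-rich libraries, a single unstimulated WT library, replicate 3, is left against 2 ACAT1 KO libraries. Values without them therefore rest on that 1 WT library, and are given beside those of a fit that kept all libraries with a term for the 3.

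Ly6e was by far the most abundant of the 7 genes. Per kilobase of exon it stood at 307.2 ± 7.45 CPM per kb (SD, n = 3) in unstimulated WT cells, followed by Ms4a6d at 51.4 ± 12.4, Ms4a6c at 14.0 ± 1.65, Ly6a at 6.15 ± 2.77, Ms4a6b at 3.70 ± 0.283, Ms4a7 at 2.70 ± 0.578 and Ms4a4c at 0.138 ± 0.0565 CPM per kb. Neighbours in this order were separated by more than the sum of their SDs except Ly6a and Ms4a6b. In unstimulated ACAT1 KO cells Ly6a dropped below Ms4a6b and Ms4a7, at 0.172 ± 0.0669 CPM per kb, where it was not separated from Ms4a4c at 0.103 ± 0.0199 CPM per kb. After LPS the top 3 places were held by the same genes in both genotypes. In ACAT1 KO cells Ly6a was then last, at 0.156 ± 0.0322 CPM per kb, below Ms4a4c at 1.49 ± 0.306 CPM per kb. In WT cells after LPS Ly6a, Ms4a7 and Ms4a6b, between 3.92 and 4.95 CPM per kb, were not separated.

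**Figure D1:**
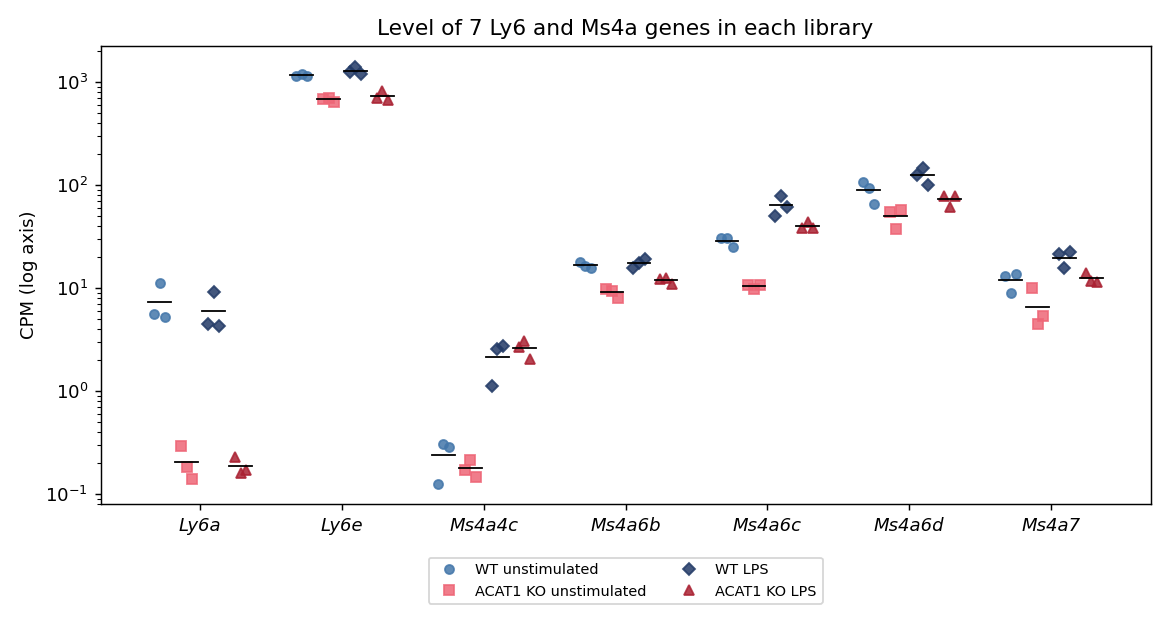
Level of the 7 listed genes in CPM on a log axis, 1 point per library and a black bar at the mean of each group of 3. Ly6a lies between 4.28 and 11.3 CPM in the 6 WT libraries and between 0.140 and 0.297 CPM in the 6 ACAT1 KO libraries, while Ms4a4c is separated by LPS and not by genotype.

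Ly6a (chromosome 15 of GRCm38, 74994877 to 74998031, minus strand) was nearly lost from ACAT1 KO cells in both states. Without stimulation WT libraries held 5.66, 11.3 and 5.31 CPM (400, 738 and 656 counts) and ACAT1 KO libraries 0.297, 0.185 and 0.140 CPM (41, 17 and 17 counts). After LPS the WT libraries held 4.47, 9.14 and 4.28 CPM and the ACAT1 KO libraries 0.233, 0.161 and 0.171 CPM. The genotypes did not overlap in either state, and WT replicate 2 was the highest WT library in both. In RNA from whole cultures, fewer cells with Ly6a and less Ly6a RNA per cell cannot be told apart. The mean in ACAT1 KO cells was 2.80% of that in WT cells without stimulation and 3.16% after LPS. The fitted log2 fold change was -5.13 (standard error 0.448) without stimulation and -4.97 (standard error 0.382) after LPS, the second lowest of 16440 and of 16483 genes tested. Without stimulation it was -4.93 with a term for the 3 antisense-rich libraries and -4.58 without them. Part of the sequence recurs in Ly6c1, which was not listed, and how the authors assigned reads from such stretches is not known.

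Ly6e (chromosome 15, 74955051 to 74959905, plus strand) differed far less, but with little spread between lines. It stood at 1147, 1195 and 1145 CPM in unstimulated WT libraries and at 679.7, 701.7 and 643.5 CPM in the ACAT1 KO libraries. After LPS it stood at 1239, 1399 and 1195 CPM in WT and at 702.3, 814.9 and 665.4 CPM in ACAT1 KO libraries. Every ACAT1 KO library was below every WT library in both states. The log2 fold change was -0.78 (standard error 0.0668) without stimulation and -0.79 (standard error 0.0926) after LPS, so that ACAT1 KO cells held 58.1% and 56.9% of the WT mean. Over the alternatives run, it stayed between -0.80 and -0.74 in unstimulated cells.

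Ms4a6c (chromosome 19, 11469366 to 11482192, plus strand) had the largest genotype difference of the 5 listed Ms4a genes chosen here in unstimulated cells, and a smaller one after LPS. Unstimulated WT libraries held 30.7, 30.7 and 24.8 CPM and ACAT1 KO libraries 10.7, 9.70 and 10.8 CPM. After LPS the WT libraries held 49.6, 78.4 and 61.7 CPM and the ACAT1 KO libraries 38.0, 44.1 and 38.2 CPM. The genotypes were apart in both states, and all 6 LPS libraries were above all 6 unstimulated ones. The log2 fold change was -1.46 (standard error 0.103) without stimulation, with ACAT1 KO cells at 36.2% of the WT mean, and -0.64 (standard error 0.150) after LPS, at 63.4%. BE692007, on the other strand of this gene, had 184, 245 and 22 counts in the unstimulated WT libraries and 10, 100 and 7 in the ACAT1 KO libraries, at most 12.2% of the count of Ms4a6c. Adding these counts to Ms4a6c gave -1.51 without stimulation. With a term for the 3 antisense-rich libraries the value was -1.42, and without them, against the lowest of the WT libraries alone, it was -1.21.

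Ms4a6b and Ms4a6d, the relatives of Ms4a6c in the same cluster, were also lower in every ACAT1 KO library. Ms4a6b (11516512 to 11531256, plus strand) held 18.0, 16.2 and 15.6 CPM in unstimulated WT libraries against 9.72, 9.42 and 8.08 CPM in ACAT1 KO libraries, and 15.8, 17.7 and 19.2 against 12.21, 12.45 and 10.99 CPM after LPS. Its log2 fold change was -0.86 (standard error 0.106) without stimulation and -0.55 (standard error 0.0912) after LPS. The genotypes did not overlap in either state. Ms4a6d (11586604 to 11604849, minus strand) held 107.4, 94.5 and 65.6 CPM in unstimulated WT libraries against 54.6, 37.5 and 57.4 CPM in ACAT1 KO libraries, and 124.9, 147.5 and 99.8 against 77.8, 60.8 and 79.0 CPM after LPS. Its spread between lines was wider, and its log2 fold change was -0.83 (standard error 0.220) without stimulation and -0.75 (standard error 0.150) after LPS. With a term for the 3 antisense-rich libraries its unstimulated value was -0.81. Without them, when the lowest WT library was alone against the highest pair of ACAT1 KO libraries, it was -0.23. When Ms4a6b, Ms4a6c and Ms4a6d were counted as a single gene, the log2 fold change was -0.95 (standard error 0.170) without stimulation and -0.70 (standard error 0.109) after LPS.

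Ms4a7 and Ms4a4c completed the Ms4a genes listed. Ms4a7 (11321039 to 11336146, minus strand), a gene of mature macrophages, held 13.2, 9.05 and 13.7 CPM in unstimulated WT libraries and 10.0, 4.50 and 5.34 CPM in ACAT1 KO libraries, and ACAT1 KO replicate 1 lay among the WT libraries. After LPS its WT libraries held 21.3, 15.7 and 22.2 CPM and its ACAT1 KO libraries 14.0, 11.8 and 11.5 CPM, without overlap. The log2 fold change was -0.85 (standard error 0.321) without stimulation, or -1.29 without ACAT1 KO replicate 1, and -0.65 (standard error 0.139) after LPS. Ms4a4c (11404770 to 11427246, plus strand) had 9 to 36 counts in unstimulated libraries and its genotypes overlapped in both states. Its log2 fold change was -0.43 (standard error 0.373) without stimulation and 0.28 (standard error 0.313) after LPS. When single libraries were left out, it moved to between -0.73 (without WT replicate 1) and -0.25 (without WT replicate 2) without stimulation. After LPS it then lay between -0.02 (without WT replicate 1) and 0.51 (without WT replicate 3). Without stimulation it was -0.46 with a term for the 3 antisense-rich libraries and -0.85 when they were left out.

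At a Benjamini-Hochberg adjusted p under 0.05 in edgeR, 4 of the 7 genes were called lower in unstimulated ACAT1 KO cells, Ly6a, Ly6e, Ms4a6b and Ms4a6c, where 1.17% of all genes tested were called lower and 0.742% higher. After LPS 6 of the 7, all but Ms4a4c, were called lower, where 9.12% of all genes were called lower and 5.93% higher. No gene of the 7 was called higher in either state. The genes were selected on this contrast, so these calls are no test of it, and nothing is read from these counts. Leaving out single libraries moved the first count to between 1 and 5.

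**Figure D2:**
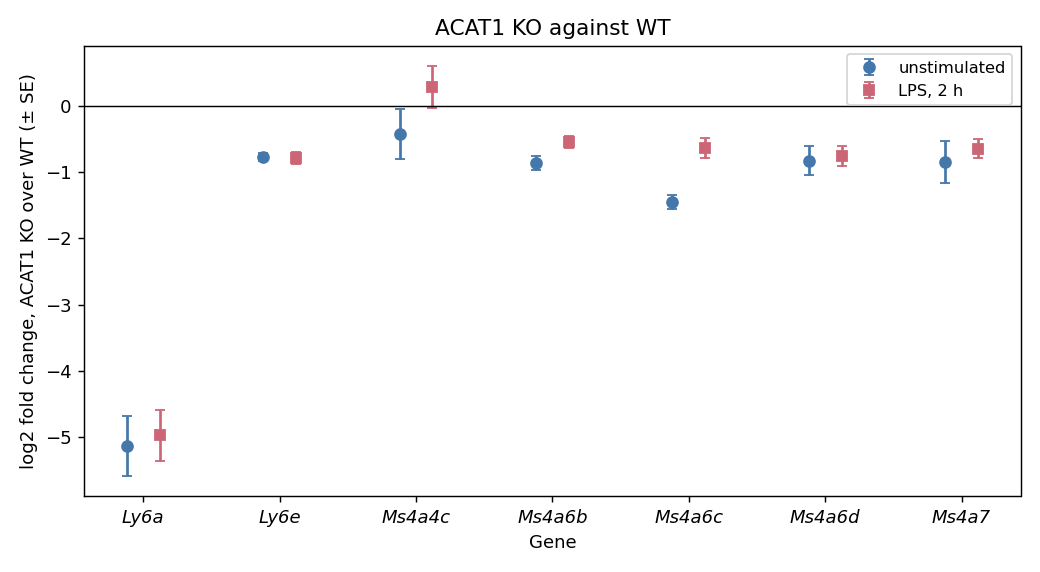
Log2 fold change of ACAT1 KO over WT for each gene without stimulation (circles) and after LPS (squares), with bars of 1 standard error from 3 lines per genotype. Ly6a lies near -5 in both states, Ly6e near -0.8 in both, and Ms4a6c moves from -1.46 to -0.64.

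The genes around the members were compared as well. Over the 638 genes tested on chromosome 15, the median log2 fold change was -0.10 in unstimulated and -0.12 in LPS-stimulated ACAT1 KO cells, the second lowest of 20 chromosomes after chromosome 12 (-0.26 and -0.28). On chromosome 15, 69.4% of the genes had a negative value and 2.98% were called lower without stimulation, and 17.7% were called lower after LPS. Of the 8 other genes tested within 500 kb of Ly6a and Ly6e, 7 had a negative value without stimulation and 2 were called lower, 1 of them the family gene Ly6m, with a median of -0.43. Over 248 genes within 10 Mb the median was -0.08 and 6 were called lower. After LPS 7 other genes were tested within 500 kb, of which 5 had a negative value and 3 were called lower, with a median of -0.29. Within 10 Mb 40 of 246 were then called lower, with a median of -0.12. Of all genes tested, 1.17% were called lower without stimulation and 9.12% after LPS. On chromosome 19 the median was 0.04 without stimulation and 0.02 after LPS. Of the 18 other genes tested within 500 kb of the Ms4a genes in unstimulated cells none was called lower, and their median was -0.03. After LPS 2 of 22 such genes were called lower, with a median of -0.03. Neither the median of a chromosome nor the difference between chromosomes was tested. DNA copy number was not measured, and the part of the chromosome in the values of Ly6a and Ly6e was not tested.

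**Figure D3:**
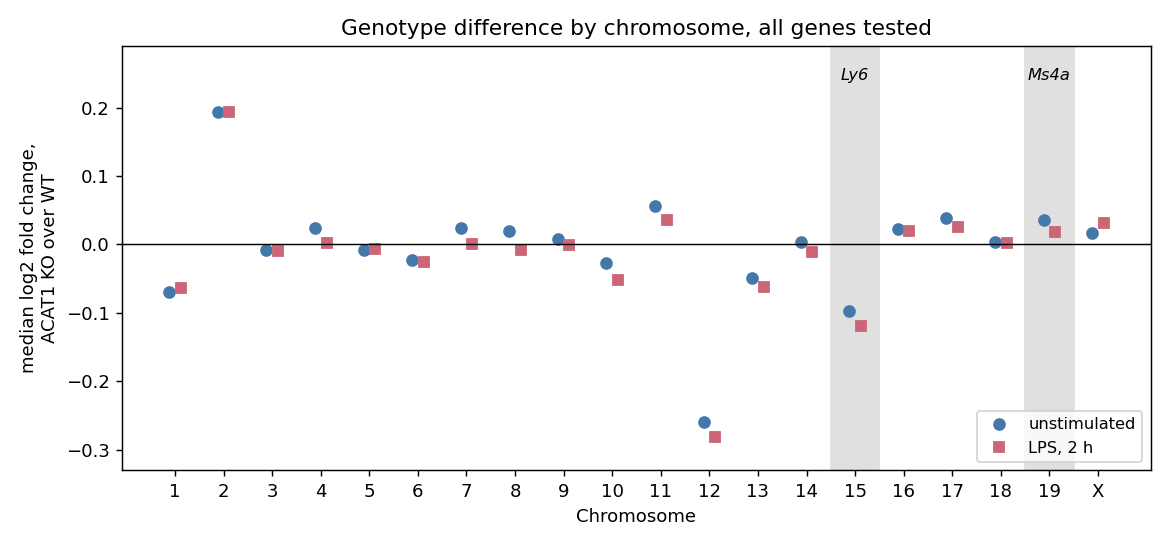
Median log2 fold change of ACAT1 KO over WT over all genes tested on each chromosome, without stimulation (circles) and after LPS (squares), with the chromosomes of the Ly6 and Ms4a genes shaded. Chromosome 15 lies at -0.10 and -0.12 and chromosome 19 at 0.04 and 0.02.

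The genes were chosen on the genotype difference rather than on the response to LPS. These contrasts share their libraries, so the tests of LPS are not independent of that choice. In WT cells Ms4a4c, Ms4a6c and Ms4a7 rose, 3 of the 7, where 29.3% of all genes tested were called higher and 28.0% lower. In ACAT1 KO cells all 5 listed Ms4a genes rose, or 3 under upper-quartile scaling, where 29.5% were called higher and 31.2% lower. Neither Ly6 gene passed the test in either genotype, although Ly6a was called lower in WT cells with the line as a block, as given below. The whole-table medians were -0.02 in WT and -0.03 in ACAT1 KO cells. Both comparisons used all 12 libraries in a single fit, and each adjusted p that follows is Benjamini-Hochberg adjusted over the 16535 genes that entered edgeR's quasi-likelihood fit.

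Ms4a4c, a little-studied relative of the T cell gene Ms4a4b, had the largest response of the 7. It stood at 0.127, 0.305 and 0.291 CPM in unstimulated WT libraries and at 1.11, 2.60 and 2.76 CPM after LPS, and at 0.174, 0.218 and 0.149 CPM in unstimulated ACAT1 KO libraries and 2.68, 3.10 and 2.04 CPM after LPS. The states were far apart in both genotypes. The log2 fold change was 3.14 (standard error 0.391, adjusted p = 2.5e-05) in WT and 3.86 (standard error 0.400, adjusted p = 4.76e-06) in ACAT1 KO cells. It rose in 6 of 6 lines, by 2.95 to 3.16 on the log2 scale in WT lines and by 3.62 to 3.81 in ACAT1 KO lines. Ms4a6c rose by 1.14 on the log2 scale in WT (standard error 0.145, adjusted p = 3.02e-05) and by 1.95 in ACAT1 KO cells (standard error 0.150, adjusted p = 3.59e-07), in 6 of 6 lines. Both genes passed the test in every alternative in which they were counted alone.

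The remaining Ms4a genes responded less. Ms4a7 rose by 0.90 in ACAT1 KO cells (standard error 0.267, adjusted p = 0.0117) and by 0.72 in WT cells (standard error 0.265, adjusted p = 0.0362), in 6 of 6 lines. Its call in WT cells held in 15 of 22 alternatives. Among these were the line as a block (0.72, adjusted p = 0.00213) and DESeq2 (0.70, adjusted p = 0.0107). The call was lost without WT unstimulated replicate 1 or 2 or WT LPS replicate 1 or 3 (adjusted p = 0.0598 to 0.127). It was also lost under upper-quartile scaling (0.51, adjusted p = 0.108) and with a term for the 3 antisense-rich libraries (0.37, adjusted p = 0.295). Without those libraries the value was 0.50. Ms4a6b rose by 0.39 in ACAT1 KO cells (standard error 0.0989, adjusted p = 0.00478), in 3 of 3 lines. In WT cells its value was 0.08 (standard error 0.0982, adjusted p = 0.502), with 1 line below 0. The call in ACAT1 KO cells was lost under upper-quartile scaling (0.24, adjusted p = 0.0549).

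Ms4a6d rose by 0.54 in ACAT1 KO cells (standard error 0.209, adjusted p = 0.0415) and had a value of 0.48 in WT cells (standard error 0.208, adjusted p = 0.0692), with all 6 lines above 0. The WT value passed with the line as a block (0.49, adjusted p = 0.00112), with DESeq2 (0.47, adjusted p = 0.0373), without unstimulated WT replicate 1, unstimulated ACAT1 KO replicate 2 or WT LPS replicate 3 (0.48 to 0.61, adjusted p = 0.0369 to 0.0414), and without the 3 antisense-rich libraries (0.89, adjusted p = 0.00633), where the lowest unstimulated WT library was the only 1 left. With a term for those libraries it was 0.50 and did not pass (adjusted p = 0.157). Without unstimulated WT replicate 3 it was 0.30 (adjusted p = 0.238), and under upper-quartile scaling it was 0.26 (adjusted p = 0.285). The call in ACAT1 KO cells was lost under upper-quartile scaling (0.40), without the 3 antisense-rich libraries (0.38, adjusted p = 0.0627) and in 6 of the 12 fits that left out 1 library: unstimulated WT replicate 2, unstimulated ACAT1 KO replicates 1 and 2, WT LPS replicate 1, and ACAT1 KO LPS replicates 1 and 3 (adjusted p = 0.0503 to 0.142). Both upper-quartile fits placed the median of all genes lower, at -0.23 in WT and -0.17 in ACAT1 KO cells. Counted as a single gene, Ms4a6b, Ms4a6c and Ms4a6d rose by 0.61 in WT (adjusted p = 0.00564) and by 0.84 in ACAT1 KO cells (adjusted p = 5.8e-04).

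Ly6e changed little on LPS, with values of 0.14 (standard error 0.0839, adjusted p = 0.187) in WT and 0.11 (standard error 0.0839, adjusted p = 0.285) in ACAT1 KO cells, and all 6 lines were above 0 by 0.05 to 0.23. Under upper-quartile scaling these values were -0.07 and -0.04. Ly6a had a value of -0.31 in WT (standard error 0.359, adjusted p = 0.490) and of -0.16 in ACAT1 KO cells (standard error 0.449, adjusted p = 0.770). The 3 WT lines changed by -0.34, -0.30 and -0.31, and with the line as a block the WT value of Ly6a was -0.32 and passed (adjusted p = 0.0386). Leaving out the highest line in 1 state only moved this value most, to 0.12 without WT unstimulated replicate 2 and to -0.76 without WT LPS replicate 2. With a term for the 3 antisense-rich libraries the WT value of Ly6a was 3.3e-05, and without them it was 0.14. In ACAT1 KO cells the value of Ly6a ran from -0.39 to 0.21 when single libraries were left out. A p that misses the threshold does not show that Ly6a or Ly6e stayed level.

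**Figure D4:**
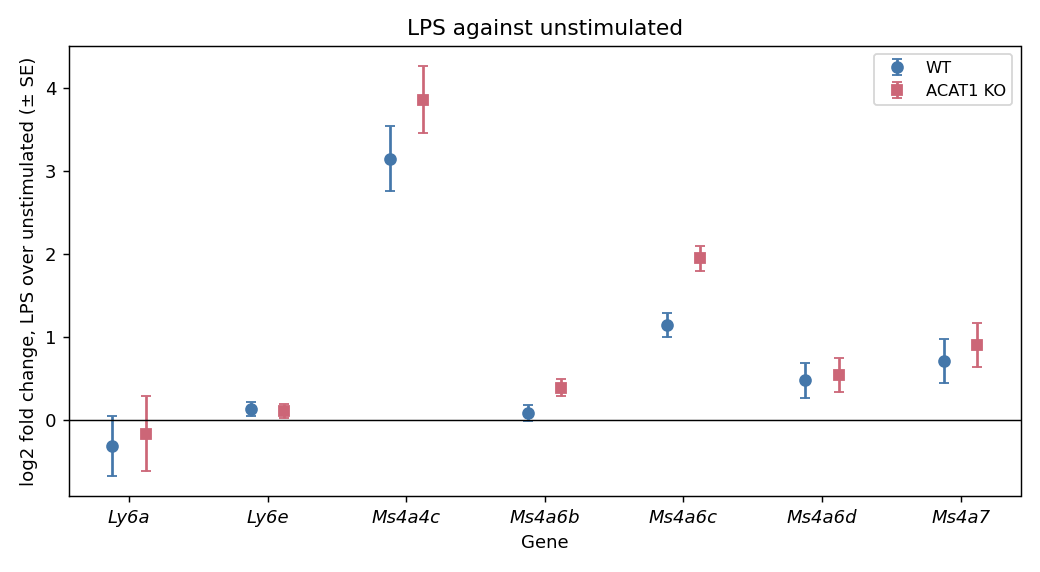
Log2 fold change of LPS over unstimulated cells for each gene in WT (circles) and ACAT1 KO cells (squares), with bars of 1 standard error. Ms4a4c reaches 3.14 and 3.86 and Ms4a6c 1.14 and 1.95, while both Ly6 genes lie within 0.4 of 0.

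The difference of the responses, ACAT1 KO minus WT, had a median of 0.19 over the 7 genes, against -0.04 over all genes tested. It was 0.81 (standard error 0.204) for Ms4a6c, 0.71 (standard error 0.529) for Ms4a4c and 0.31 (standard error 0.139) for Ms4a6b. Ms4a7 was at 0.19, Ly6a at 0.15, Ms4a6d at 0.06 and Ly6e at -0.03, each less than its standard error. Without the 3 antisense-rich libraries, that is with 1 unstimulated WT library, it was -0.51 for Ms4a6d, -0.38 for Ly6a and 0.59 for Ms4a6c, and with a term for them 0.05, -0.06 and 0.77, respectively. For Ms4a7 it was 0.62 without unstimulated ACAT1 KO replicate 1. This difference shares its libraries with the genotype differences above and is given without a test.

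Few other genes of the families were found in these cells. Of 39 other Ly6 family genes, 5 were tested without stimulation and 4 after LPS, and of 18 other Ms4a family genes, counting the related Tmem176a and Tmem176b, 5 were tested in each state. In unstimulated ACAT1 KO cells 1 of the 5 Ly6 genes was called lower, where 1.17% of all genes tested were. This was Ly6m, named here after its values were seen, at -2.49 (adjusted p = 0.0400). It lies beside Ly6a and Ly6e on chromosome 15 and stayed lower after LPS, at -2.10 (adjusted p = 0.0227), with at most 1.43 CPM in any library. After LPS Plaur, the urokinase receptor and the most abundant of these Ly6 genes, was also lower, at -0.47 (adjusted p = 0.00817), from 526.0 ± 15.8 CPM (SD, n = 3) in WT to 373.6 ± 37.3 CPM in ACAT1 KO cells. The median over the tested Ly6 genes was -0.35 without stimulation and -0.52 after LPS, against 0.00 over all genes in both. Without stimulation 3 of the 5 had a negative value. The -0.35 was the value of Ly6g6d (standard error 0.532), named after its values were seen, at 0.146 and 0.109 CPM in WT and ACAT1 KO cells. Plaur, at 99.6 and 111.4 CPM there, had a value of 0.17 (adjusted p = 0.277).

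Among the other Ms4a genes, Tmem176b, an ion channel of endosomal membranes, was lower in both states, at -0.56 (adjusted p = 0.0443) and -0.76 (adjusted p = 0.00128). It stood at 259.4 ± 28.1 and 175.1 ± 9.86 CPM (SD, n = 3) in unstimulated WT and ACAT1 KO cells. Tmem176a was lower after LPS, at -0.45 (adjusted p = 0.00696), as was Ms4a14, at -1.07 (adjusted p = 0.0101). Of all genes tested, 1.17% were called lower without stimulation and 9.12% after LPS. No gene of this list was called higher by genotype, where 0.742% of all genes were without stimulation and 5.93% after LPS. All 5 had a negative value without stimulation, with a median of -1.08, and 4 of the 5 after LPS, with a median of -0.75. The -1.08 was the value of Ms4a4a, named after its values were seen, which did not pass (adjusted p = 0.228). Unstimulated WT and ACAT1 KO cells held only 0.523 and 0.246 CPM of it. Ms4a4b, at 0.540 and 0.173 CPM, and Ms4a14, at 0.954 and 0.283 CPM, were also low there. Ms4a4b had values of -1.64 and -0.75 that did not pass (adjusted p = 0.0647 and 0.101).

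On LPS, 2 of the 5 other Ms4a genes rose in WT cells and 3 in ACAT1 KO cells, and none fell. Of all genes tested, 29.3% were called higher in WT and 29.5% in ACAT1 KO cells, and nothing is read from these counts. Ms4a14 rose by 1.55 (adjusted p = 0.0126) and 2.19 (adjusted p = 0.00189) in WT and ACAT1 KO cells, and Ms4a4b by 0.91 (adjusted p = 0.0248) and 1.78 (adjusted p = 5.59e-04). Ms4a4a, named after its values were seen, rose by 1.01 in ACAT1 KO cells (adjusted p = 0.0425) and had a value of -0.33 in WT cells (adjusted p = 0.490). Tmem176b had a value of 0.18 in WT cells that did not pass (adjusted p = 0.0675), but did with the line as a block (0.19, adjusted p = 0.0368). Of the 4 other Ly6 genes tested, Plaur rose by 2.40 (adjusted p = 1.16e-09) and 1.74 (adjusted p = 8.92e-09) and Ly6g5b by 2.45 (adjusted p = 3.40e-05) and 2.24 (adjusted p = 6.19e-05), and Ly6m fell by 1.09 in WT cells (adjusted p = 0.0382).

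The interferon pathway is set beside these genes because Ly6a and Ly6e are known to respond to it. Of 30 genes of the pathway, 29 were tested in unstimulated cells, where 21 had a negative value, with a median of -0.51. Of these, 3 were called lower (Stat2, Usp18 and Cmpk2) and 1 higher (Irf8). Of all genes tested, 1.17% were called lower and 0.742% higher. The transcription factors Irf7 at -1.31 (adjusted p = 0.0766) and Irf9 at -0.35 (adjusted p = 0.168) and the ubiquitin-like Isg15 at -0.94 (adjusted p = 0.0847) did not pass. After LPS the median over 30 genes was -0.02, with 2 called lower, Ifnar1 and Irf8, and 1 higher, Ifnb1. Of all genes tested after LPS, 9.12% were called lower and 5.93% higher. The genes of this paragraph outside Irf7, Irf9 and Isg15 were named after their values were seen. Ly6a and Ly6e had like genotype differences in both states, while that of Ms4a6c was -1.46 without stimulation and -0.64 after LPS. The median of this list also differed between the states, and a link between these genes and the pathway was not tested.

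The pathway responded strongly to LPS itself. In WT cells 25 of 29 genes rose and 2 fell, with a median of 2.78. In ACAT1 KO cells 24 rose and 3 fell, with a median of 3.75. Of all genes tested, 29.3% rose and 28.0% fell in WT cells, and 29.5% rose and 31.2% fell in ACAT1 KO cells. Isg15 rose by 4.99 and 6.21, Irf7 by 2.48 and 3.85 and Irf9 by 1.42 and 1.83 in WT and ACAT1 KO cells, respectively, each with an adjusted p of at most 6.87e-06. Ms4a4c, Ms4a6c and Ms4a7 also rose in both genotypes, and Ms4a6b and Ms4a6d in ACAT1 KO cells, within the limits given above. Ly6a and Ly6e, at most 0.14 in WT cells, did not pass the test, although Ly6a did in WT cells with the line as a block (-0.32). A link to the pathway was not tested.

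The genes whose pattern over the 12 libraries was most like Ly6a, Ly6e and Ms4a6c were found by the root mean square difference of log2 CPM, each gene centred on its own mean, among 11737 genes with a mean log2 CPM of at least 0. For Ms4a6c these were Oas3 (0.214), Ahr (0.230) and Oas2 (0.293), where the median over all genes was 0.990. Oas3 and Oas2 are interferon-induced antiviral enzymes on chromosome 5, and Ahr is a ligand-activated transcription factor on chromosome 12. For Ly6e they were Thap2 (0.126) and Stxbp5 (0.133) on chromosome 10 and Dock4 (0.142) on chromosome 12, where the median was 0.510. For Ly6a the nearest genes, Gramd4 (1.28) on chromosome 15, As3mt (1.32) on chromosome 19 and Cd28 (1.41) on chromosome 1, lay far off, where the median was 2.50. As3mt, a methyltransferase for arsenic, shared its separation of the genotypes, with centred group means of 3.49 and -3.31 in unstimulated WT and ACAT1 KO cells, against 2.60 and -2.40 for Ly6a. The 12 libraries share 2 genotypes and 2 states, so likeness over them is a description.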

How the data were processed

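RNA-seq of 12 libraries of J774A.1 cells was analysed. The members and lists were chosen with earlier results of these data known. Counts as deposited by the authors were whole numbers per gene in a table for each state, made with Trimmomatic 0.33, HISAT2 (build GRCm38) and StringTie according to the submitters' processing notes. The library kit keeps strand, but whether counting used it is not given in the sources used here. The authors also deposited log2 values per library (12 columns), fold changes and p-values, which were not used.

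The tables listed 17544 unstimulated and 17874 LPS genes. The fits used edgeR 4.0.16 (R 4.3.3) with filterByExpr, TMM and the two-sided quasi-likelihood test with Benjamini-Hochberg adjustment at 0.05. Genotypes were compared within each state, and LPS responses and the interaction over all 12 libraries. Standard errors are the log2 fold change divided by the root of the F statistic. The fits were tested on simulated data.

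Named genes are the 10 members, Acat1, other family genes with a mean of at least 1 CPM in a group, Irf7, Irf9, Isg15 and the 3 genes most like Ly6a, Ly6e and Ms4a6c, and 1 gene that is not reported here. Libraries of 1 line, taken by replicate number, deviated together across states (r = 0.374 to 0.573 over 10814 genes, 6 pairs), so the line was also fitted as a block. No library was a copy of another. Lines are the replicates, and p-values measure only the spread between them. The alternatives were relative log expression and upper-quartile scaling, no filter, DESeq2 1.42.0, the block, other sets of libraries in the fit, a term for 3 unstimulated libraries, copies counted together, and each library left out. Leaving out those 3 libraries and adding counts of BE692007 to Ms4a6c were chosen after seeing the data.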

Additional observations from a re-analysis of the deposited data

How the results depend on the processing

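The number of genes called lower in unstimulated ACAT1 KO cells was 4 of 7 and lay between 1 and 5 when single libraries were left out, with 1 without ACAT1 KO replicate 3. After LPS it was 6, and between 3 and 6 when single libraries were left out, with 3 without ACAT1 KO replicate 2. Of all genes tested, 1.17% were called lower without stimulation and 9.12% after LPS. Since the genes were chosen on this contrast, neither these counts nor their ranges are read as a result. With the replicate block, 1 gene (Ly6a) was called lower on LPS in WT cells. In ACAT1 KO cells 3 rather than 5 genes were called higher on LPS under upper-quartile normalization, and 3 of 5 when Ms4a6b, Ms4a6c and Ms4a6d were counted as 1 gene. The median difference of responses, 0.19, lay between 0.0656 and 0.523 when single libraries were left out, with 0.523 without unstimulated ACAT1 KO replicate 1.

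Over all genes, 314 were called by genotype in unstimulated cells, against 1721 with DESeq2, 1353 in a single fit of all 12 libraries, 664 with a term for the 3 libraries, 151 with the replicate block, 66 without the 3 libraries and 7 to 522 when single libraries were left out, with 7 without WT replicate 2. After LPS 2481 were called, and 867 to 2245 when single libraries were left out, with 867 without ACAT1 KO replicate 2. For WT and ACAT1 KO libraries of the same number, deviations correlated from -0.0162 to 0.476 without stimulation and from -0.0932 to 0.248 after LPS. For libraries of different numbers they ran from -0.564 to 0.294 and from -0.363 to 0.198. These ranges overlapped, and whether the numbers pair the genotypes was not settled. Ly6c1, Ly6c2 and Ly6i were not listed, so their copies could not be counted together with Ly6a. The line block changed the LPS calls of Ly6a and Ms4a6d in WT cells given above and no other of the 7 genes, and among the other family and interferon pathway genes tested it changed that of Tmem176b in WT cells. Over all genes the block called 10248 on LPS in WT and 10718 in ACAT1 KO cells, within 1.5 times the numbers without it.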
